A study of Mus musculus with 20 samples.

Results

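Genes of S phase and mitosis were followed at 4 ages in female C57BL/6J (B6) mice, in RNA of the corneal epithelium, as a readout of how much the basal layer was cycling in each library. The 46 genes were chosen by symbol from a list of known cell cycle genes, with earlier results of these data known but no measured value in the rule, out of 24552 genes in the table. They comprised 13 S-phase genes, 31 mitosis genes and the chromosome proteins *Mki67* and *Top2a*. All 46 passed the filter for testing, a mean of 10 or more normalized counts, as did 11288 genes in all, and 45 had reads in every library. Their mean normalized counts over the 20 libraries ran from 26.8 (*Aurkb*) to 2996 (*Top2a*), with a median of 244.

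Each library held the epithelium of both corneas of 1 naïve wild-type mouse, removed by debridement, and there were 5 libraries at each age. The groups were young (2 to 3 months), 12-month (12 to 13 months), 18-month (18 to 19 months) and 24-month (24 to 25 months), with no treatment in any of them. Libraries were read from the 3′ end of poly(A) transcripts and held 6699383 to 10762360 reads on genes, and the values below are normalized counts, that is, reads divided by the size factor of the library. *Krt12*, the keratin that defines corneal epithelium, stood at 203580 to 285895 normalized counts, and the summed basal epithelium markers at 133338 to 194658. The summed level of 11 stromal keratocyte markers had a median of 4983 in the young group and 2339 in the 24-month group, and 1 12-month library (replicate 3) held 1049 normalized counts of melanocyte markers against 44.2 to 133 in the others. As whole epithelium was sequenced, fewer cycling cells and less cell cycle RNA per cell cannot be told apart.

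In the cornea, cells divide in the basal layer and at the limbus, and their daughters leave the cycle as they move up and are shed. A dividing cell first licenses its replication origins and loads the MCM helicase, then makes deoxynucleotides and copies its DNA around the PCNA clamp. In G2 it builds up cyclin B, CDK1 and the Polo and Aurora kinases, which drive spindle assembly, attachment of kinetochores to microtubules, the checkpoint that waits for that attachment, and finally cytokinesis. Transcripts of these genes are made in waves, those of S phase under E2F factors and many of those of mitosis through a cell cycle genes homology region (CHR) and CCAAT boxes bound by the MuvB complex, B-MYB, FOXM1 and NF-Y.

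The promoter windows of the 46 genes are given first. RefSeq windows on GRCm38.p6 were found for 39 of the 46 genes, all but *Ccna2*, *Kif20a*, *Mcm4*, *Tpx2*, *Spc24*, *Stmn1* and *Aurkb*, and the 250 bases before the transcript start were searched on both strands. A CHR (TTTGAA or TTTAAA) was found in 13 of 25 mitosis genes (52%) and 3 of 12 S-phase genes (25%), against 20.7% of the 8913 tested genes with a window. A CCAAT box (CCAAT) was found in 76% of the mitosis genes, 66.7% of the S-phase genes and 40.8% of tested genes, and both motifs together in 44%, 16.7% and 7.79%. An E2F-like motif (GCGGGAA or GCGCGAA or GCGCCAA) was found in 5 of the 12 S-phase genes (41.7%), in 16% of the mitosis genes and in 14.7% of tested genes. The E2F-like form GCGCCAA can share bases with a CCAAT box, as it does in *Ccnb1*, and with GCGCGAA on the other strand, as in *Mcm6*. A match describes letters in a window and is neither a measured binding site nor a cause of what follows.

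**Figure D1:**
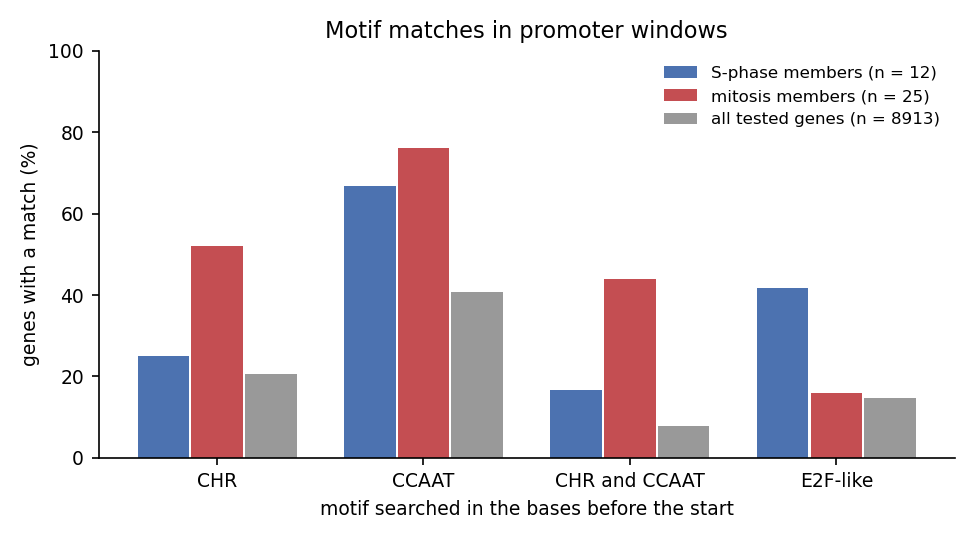
Share of genes (y axis, percent) whose 250 bases before the transcript start held each motif (x axis), for 12 S-phase genes, 25 mitosis genes and 8913 tested genes. CHR and CCAAT together stood at 44% of mitosis genes and 16.7% of S-phase genes, and the E2F-like motif at 16% and 41.7%.

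The 200 bases before the start are shown for the 4 genes whose 24-month libraries all lay above the 12-month ones (*Cenpa*, *Ccnb1*, *Plk1* and *Kif23*), for *Top2a*, the most abundant of the 46, and for 2 S-phase genes. These 2, *Mcm6* and *Rrm1*, are among the 5 of 12 S-phase genes with an E2F-like match and do not stand for the others. Each window runs 5′ to 3′ on the strand of the gene, and capitals mark the CHR, CCAAT and E2F-like matches on either strand.
*Cenpa*, chr5:30666686-30666885, plus strand: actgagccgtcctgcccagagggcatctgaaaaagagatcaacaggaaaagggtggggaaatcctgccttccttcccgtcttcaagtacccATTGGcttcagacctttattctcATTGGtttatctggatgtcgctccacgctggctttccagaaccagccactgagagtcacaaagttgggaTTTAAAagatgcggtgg
*Ccnb1*, chr13:100786487-100786686, minus strand: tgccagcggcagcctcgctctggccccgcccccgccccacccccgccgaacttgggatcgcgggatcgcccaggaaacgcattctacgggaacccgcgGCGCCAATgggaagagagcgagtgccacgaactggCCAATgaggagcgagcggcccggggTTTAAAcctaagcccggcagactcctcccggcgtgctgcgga
*Plk1*, chr7:122159235-122159434, plus strand: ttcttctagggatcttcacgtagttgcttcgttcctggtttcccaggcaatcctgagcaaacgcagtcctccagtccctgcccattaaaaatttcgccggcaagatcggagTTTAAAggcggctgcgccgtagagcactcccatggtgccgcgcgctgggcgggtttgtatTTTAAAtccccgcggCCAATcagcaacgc
*Kif23*, chr9:61946800-61946999, minus strand: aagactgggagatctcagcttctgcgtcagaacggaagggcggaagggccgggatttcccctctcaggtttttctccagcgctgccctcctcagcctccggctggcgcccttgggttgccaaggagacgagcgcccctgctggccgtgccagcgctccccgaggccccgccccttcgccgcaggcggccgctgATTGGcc
*Top2a*, chr11:99024190-99024389, minus strand: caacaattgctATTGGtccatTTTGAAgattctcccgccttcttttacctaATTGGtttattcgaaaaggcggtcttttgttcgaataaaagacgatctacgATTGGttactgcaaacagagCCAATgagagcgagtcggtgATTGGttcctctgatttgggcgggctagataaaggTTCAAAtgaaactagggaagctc
*Mcm6*, chr1:128359706-128359905, minus strand: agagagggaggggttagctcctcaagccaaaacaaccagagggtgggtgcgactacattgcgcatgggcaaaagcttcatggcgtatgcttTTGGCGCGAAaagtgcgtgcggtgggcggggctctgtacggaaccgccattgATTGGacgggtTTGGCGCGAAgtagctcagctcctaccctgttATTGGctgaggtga
*Rrm1*, chr7:102441495-102441694, plus strand: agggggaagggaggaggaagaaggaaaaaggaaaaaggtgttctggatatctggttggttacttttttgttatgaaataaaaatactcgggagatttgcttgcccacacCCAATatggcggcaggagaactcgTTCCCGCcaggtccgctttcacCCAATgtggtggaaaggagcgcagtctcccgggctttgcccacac
In *Cenpa*, *Ccnb1* and *Plk1* the match TTTAAA lay within 42 bases of the start, from -17, -42 and -29, and *Plk1* had another from -89. *Kif23* had 1 CCAAT box, from -7, and no CHR match in this window. *Top2a* had 5 CCAAT boxes and a CHR match on each strand, from -179 and from -23. *Mcm6* had E2F-like matches on both strands that share bases, from -109 and again from -46.

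The summed level of the 46 genes, in which abundant genes weigh most, did not separate the ages. It was 18574 ± 3953 normalized counts in the young group, 16488 ± 1289 at 12 months, 17613 ± 3987 at 18 months and 18453.5 ± 3151 at 24 months (mean ± SD, n = 5 each), so that the means lay closer together than the libraries of 1 age. The highest sum of the 20 libraries was 1.90 times the lowest. The 3 highest libraries were 18-month replicate 1, 24-month replicate 5 and young replicate 5, and the lowest was young replicate 2. *Top2a* alone made up 16.8% of the sum, and the 46 genes together 0.159% to 0.293% of the reads of a library. Relative to the basal markers, the sum was 12.2% ± 3.72 in the young libraries, 10.7% ± 0.83 in the 12-month, 11.1% ± 2.18 in the 18-month and 11.3% ± 3.07 in the 24-month libraries. The mean log2 value over genes, in which each gene counts equally, was also taken per library. For the mitosis genes it ran from 7.10 to 7.65 at 12 months and from 7.72 to 8.43 at 24 months, without overlap. The young (7.42 to 8.18) and 18-month (7.51 to 8.29) ranges overlapped both. For all 46 genes the 12-month and 24-month ranges overlapped (7.35 to 7.84 and 7.80 to 8.46), as did those of the S-phase genes. These ranges were not tested.

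By their summed counts, the 12-month libraries were the most alike. The coefficient of variation of the sum was 7.82% at 12 months, against 21.3% in the young group, 22.6% at 18 months and 17.1% at 24 months, a description of 5 libraries each with no test. By the mean log2 value over all genes the contrast was small. Its SD was 0.24 at 12 months, against 0.28, 0.28 and 0.27 in the young, 18-month and 24-month groups. For mitosis genes these SDs were 0.23 against 0.29, 0.33 and 0.31. For S-phase genes the SD was largest at 12 months, 0.36 against 0.25, 0.26 and 0.22. Mitosis transcripts summed to 10406, 7696, 11343, 10172 and 13706 normalized counts in the young libraries (replicates 1 to 5) and to 8758, 8195, 9893, 9041 and 9109 in the 12-month libraries. They summed to 14602, 9035, 9959.8, 8566 and 9753 at 18 months and to 9928, 10331, 10970.5, 9745 and 14389.7 at 24 months. The 12-month libraries thus filled the lower part of the young range, and 1 library at 18 months and 1 at 24 months stood far above the rest of their groups. S-phase transcripts summed to 3563 ± 794 in the young libraries, 3516 ± 280 in the 12-month, 3212 ± 527 in the 18-month and 3591 ± 585 in the 24-month libraries. The ratio of mitosis to S-phase transcripts was 3.03 ± 0.41 in the young group, 2.56 ± 0.143 at 12 months, 3.25 ± 0.551 at 18 months and 3.09 ± 0.23 at 24 months (SD, n = 5).

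**Figure D2:**
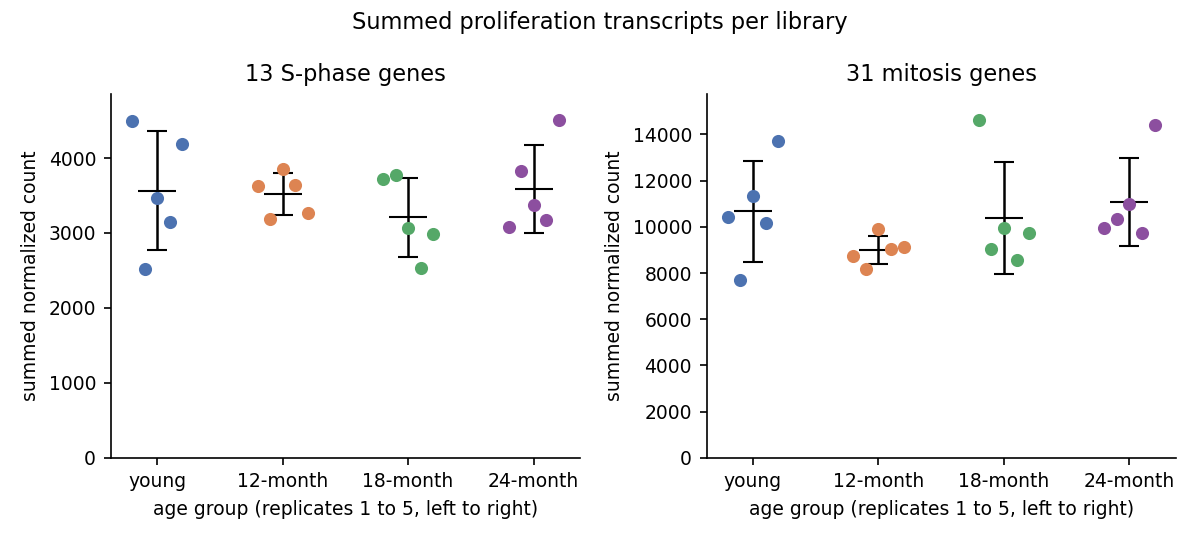
Summed normalized counts (y axis) of the 13 S-phase genes (left) and the 31 mitosis genes (right) in each library, by age group (x axis, replicates 1 to 5 from left to right). Bars give the mean and SD of 5 libraries. The 12-month mitosis sums lie between 8195 and 9893, within the young range of 7696 to 13706, and 18-month replicate 1 (14602) and 24-month replicate 5 (14389.7) stand above the rest of their groups.

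The first question was whether proliferation genes differed between the young group and each aged group. None of the 46 was a differentially expressed gene (DEG; limma with Benjamini-Hochberg adjustment over all 11288 genes, adjusted p-value of 0.05 or less and at least 1.2-fold) at 12, 18 or 24 months against young. Of all tested genes, 0.532%, 0.673% and 0.78% were DEGs in these comparisons. In voom, a count-based limma fit, 0 of the 46 were DEGs as well. The count at an unadjusted p-value below 0.05 was 6 of 46 (13.0%) at 12 months against 9.56% of all tested genes, 1 (2.17%) at 18 months against 7.18%, and 3 (6.52%) at 24 months against 9.97%. For all aged libraries against young, 0 of 46 were DEGs in either fit, against 1.01% of tested genes, and 2 (4.35%) reached the unadjusted 0.05 level against 7.89%.

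The intervals bound how large a change could have been missed. The 95% confidence interval of the log2 change lay within 2-fold in both directions for 33 of 46 genes at 12 months (71.7%), for 42 at 18 months (91.3%) and for 37 at 24 months (80.4%). Of all tested genes this held for 68.6%, 69.5% and 68.0%. The 12-month share was thus near that of all genes, and for mitosis genes it was 19 of 31 (61.3%). The direction of the differences was uneven between the roles. At 12 months 36 of 46 genes were lower than in the young group, with a median log2 change of -0.23 against -0.01 for all tested genes. This came from mitosis genes, 28 of 31 of which were lower (median -0.34), while 6 of 13 S-phase genes were lower (median 0.03). Mitosis genes moved together between libraries of the same age (median Pearson r of pairs 0.38), so 28 of 31 does not count 31 separate observations. At 18 months 29 of 46 were lower (median -0.10, and -0.24 to -0.0035 on leaving out 1 library), and at 24 months 18 of 46 (median 0.10). Of all 11288 tested genes, 5838, 5669 and 5561 were lower at 12, 18 and 24 months. The 24-month median turned to -0.059 without 24-month replicate 5 and lay just below 0 without young replicate 2. The 3 comparisons share the young libraries, so their values stand side by side and do not support each other.

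**Figure D3:**
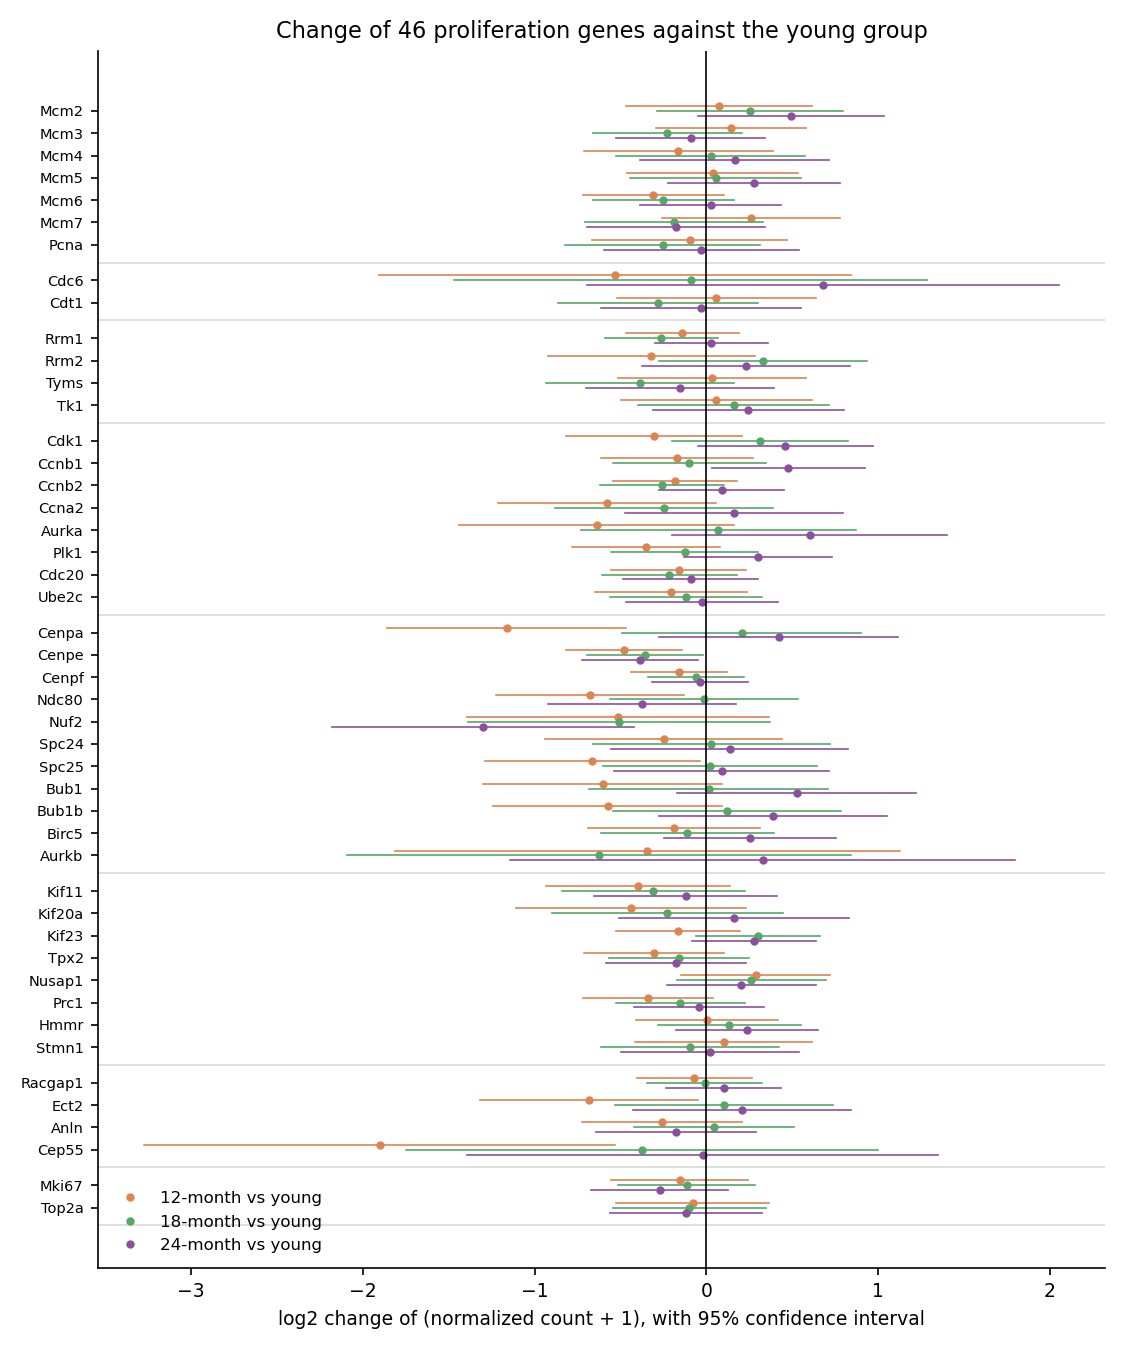
Log2 change of the normalized count plus 1 against the young group (x axis) for the 46 genes (y axis, in order of role), with 95% confidence intervals, at 12, 18 and 24 months. Most intervals cross 0, and the 12-month points of the mitosis genes lie mostly to the left of it (28 of 31).

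*Mki67*, the proliferation antigen that coats mitotic chromosomes, and *Top2a*, the topoisomerase that untangles sister chromatids, were not DEGs at any age. *Mki67* stood at 1754, 780.2, 938, 1053 and 1223 normalized counts in the young libraries and at 841, 981, 1064, 702 and 1048 in the 24-month libraries. Young replicates 1 and 5 lay above every 24-month library, and the other 3 within their range. The 24-month difference was -0.27 on the log2 scale (95% interval -0.67 to 0.13; limma, adjusted p = 0.685), and ran from -0.40 to -0.10 on leaving out 1 library. *Top2a* had means of 3198 ± 1053 in the young group, 2962 ± 793 at 12 months, 2962 ± 984 at 18 months and 2863 ± 639 at 24 months, with log2 changes against young of -0.08, -0.10 and -0.12.

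Among the S-phase genes, the group of the helicase subunits and the clamp held no DEG. In this group 4 of 7 genes were higher and 3 lower at 12 months, and all 7 intervals lay within 2-fold. *Mcm7*, a subunit of the MCM ring and the most abundant of that group in these counts, stood at 1767, 381, 651, 557 and 963 in the young libraries and at 608, 964, 912, 921 and 1169.8 at 12 months. The young mean of 864 ± 547 rested on replicate 1, and the 12-month log2 difference of 0.26 (SE 0.25) was within the spread between libraries, with 0.015 without young replicate 2 and 0.57 without young replicate 1. The count of *Mcm7* is uncertain, as its exons share bases with *Ap4m1* and *Cops6* on the opposite strand. The same holds for other members with such overlaps, *Plk1*, *Nusap1*, *Cdc20* and *Ube2c* among them. *Mcm3*, of the same ring, had the second-largest positive value among S-phase genes at 12 months, 0.15 (SE 0.21, and 0.0081 to 0.26 on leaving out 1 library).

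The licensing factors *Cdt1* and *Cdc6*, which place the helicase on origins, were variable. *Cdt1* means were 104 ± 32.8 in the young group, 110 ± 39.5 at 12 months, 83.9 ± 25.5 at 18 months and 98 ± 16.7 at 24 months. *Cdc6* stood at 19.7, 30, 29.2, 45.6 and 145 in the young libraries and at 56.6, 99.2, 87, 81.8 and 32 at 24 months. Of the 5 young libraries 4 lay below 4 of the 24-month libraries, and young replicate 5 lay above all of these. The log2 difference of 0.68 was the largest positive value of the 46 at 24 months, but its SE was 0.67 and it ran from 0.42 to 1.13 on leaving out 1 library.

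Genes of nucleotide supply gave values on both sides of 0. *Rrm1*, the large subunit of ribonucleotide reductase, had means of 476 ± 111 in the young group, 426 ± 58.1 at 12 months, 391 ± 55.3 at 18 months and 481 ± 83 at 24 months. *Rrm2*, the small subunit that is limiting for the enzyme, had the largest positive log2 value at 18 months, 0.33 (SE 0.30), but 0.094 without young replicate 1. *Tyms*, which makes thymidylate, was lower at 18 months by 0.39 (SE 0.27; adjusted p = 0.865). Across the 13 S-phase genes the 18-month mean was the lowest of the 4 ages for 7 and the 24-month mean the highest for 8.

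The mitotic cyclins, kinases and anaphase-promoting complex genes had lower values at 12 months than in the young group in 8 of 8 genes (log2 -0.64 to -0.16), none with an unadjusted p-value below 0.05. *Cdc20*, the activator of the anaphase-promoting complex and the most abundant of these, had means of 529 ± 149, 474 ± 137, 449.5 ± 93.9 and 488 ± 86.4 in order of age. *Aurka*, the spindle pole kinase, had the second-largest positive value at 24 months against young, 0.60 (SE 0.39). *Cdk1*, the kinase that starts mitosis, had one of the 3 largest positive values at 18 months, 0.31 (SE 0.25), but 0.076 without young replicate 1. *Ccnb1*, its cyclin partner, was higher at 24 months than in the young group by 0.48 (SE 0.22; unadjusted p = 0.0359, adjusted p = 0.451).

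Centromere and kinetochore genes gave 4 of the 6 unadjusted p-values below 0.05 at 12 months. All 11 were lower than in the young group (median log2 change -0.51). *Cenpe*, the kinesin that carries chromosomes to the spindle equator, stood at 877, 576, 789, 689 and 920.2 in the young libraries and at 522, 534, 706, 463 and 529 at 12 months. Of the 12-month libraries 4 lay below every young library. Its 18-month values were 921, 477, 554, 474 and 634 and its 24-month values 592, 601, 532, 519.5 and 671. The log2 changes against young were -0.48, -0.36 and -0.39, and for all aged libraries -0.41 with an adjusted p-value of 0.202 in limma, so that *Cenpe* was not a DEG. It was the one member with an unadjusted p-value below 0.05 at each of the 3 ages, which all use the young libraries.

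*Nuf2*, a subunit of the NDC80 complex that binds microtubules, had the largest negative value at 24 months. It stood at 81.1, 18.7, 41.1, 59.3 and 92 in the young libraries and at 41.9, 9.76, 12.3, 26.1 and 24.5 at 24 months, with overlap through young replicates 2 and 3. The log2 difference was -1.30 (SE 0.43; limma, adjusted p = 0.216). *Ndc80*, of the same complex, was lower by 0.68 at 12 months (adjusted p = 0.371), with values of -0.01 at 18 months and -0.38 at 24 months. *Bub1*, a checkpoint kinase, gave -0.60 at 12 months and 0.53 at 24 months (SE 0.34, and 0.32 to 0.69 on leaving out 1 library). *Cenpf*, the most abundant kinetochore gene here, ranged between means of 1287 ± 192 at 12 months and 1439 ± 224 in the young group. *Aurkb*, the kinase of the passenger complex, had the largest negative value at 18 months, -0.63, on a mean of 26.8 normalized counts and an SE of 0.72, and ran from -1.14 to -0.29 on leaving out 1 library.

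Of the spindle motors and microtubule proteins 5 of 8 were lower at 12 months, none with an unadjusted p-value below 0.05. *Kif23*, the motor of the central spindle, had means of 858 ± 275 in the young group, 745 ± 116 at 12 months, 1047 ± 262 at 18 months and 1009.5 ± 126 at 24 months. *Nusap1*, which bundles spindle microtubules, gave the largest positive value at 12 months, 0.29 (SE 0.21), but 0.073 without young replicate 2. Cytokinesis genes were lower at 12 months in 4 of 4. *Cep55*, which recruits the abscission machinery, stood at 17.5, 0, 49.3, 33.1 and 10.2 at 12 months against 44.9, 32.2, 63.9, 45.6 and 55 in the young group, a log2 difference of -1.90 (SE 0.67; adjusted p = 0.292). Without 12-month replicate 2, the library at 0, the difference was -0.98. *Ect2*, the exchange factor that starts the contractile ring, gave -0.68 (SE 0.31; adjusted p = 0.473). *Racgap1*, its partner at the central spindle, differed from young by no more than 0.10 in size at any age, with an SE of 0.16.

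The second question was whether the aged groups differed among themselves. Between 24 and 12 months, 37 of 46 genes (80.4%) were higher at 24 months, against 52.2% of all tested genes. The median log2 difference was 0.29 against 0.02 for all tested genes. Mitosis genes were higher in 28 of 31 (median 0.38) and S-phase genes in 9 of 13 (median 0.19). An unadjusted p-value below 0.05 was reached by 12 of 46 genes (26.1%), all higher at 24 months and all of mitosis, against 14.7% of tested genes in either direction. Of these, 1 was a DEG (*Cenpa*), against 0.195% of tested genes, and voom gave 0 of 46 against 21 of 11288. Between 18 and 12 months 0 of 46 were DEGs in limma and in voom (0.00886% of tested genes in limma), with 9 (19.6%) at an unadjusted p-value below 0.05 against 7.43%, all higher at 18 months. Between 24 and 18 months 0 were DEGs in both fits (0% of tested genes), with 1 (2.17%) at an unadjusted p-value below 0.05 against 5.31%. In that comparison 36 of 46 were higher at 24 months (78.3%, median 0.14), against 51.3% of all tested genes. The comparisons with 12 months share the 12-month libraries.

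*Cenpa*, the histone H3 variant that marks the centromere and is loaded anew after each division, was the DEG. It stood at 74.5, 200.1, 214, 237 and 157 normalized counts in the young libraries, at 154, 40.8, 137, 63.1 and 37 at 12 months, at 209, 152, 214, 152 and 234 at 18 months and at 185, 222, 162, 239 and 324 at 24 months. Every 24-month library lay above every 12-month library, and the young range overlapped that of every other age. *Cenpa* rose by 1.58 on the log2 scale between 12 and 24 months (SE 0.34, 95% interval 0.89 to 2.28; limma, adjusted p = 0.0419; two-sided exact permutation p = 0.00794, the smallest that 5 libraries against 5 allow). The test over all 4 ages called *Cenpa* as well (moderated F, adjusted p = 0.0403) and no other of the 46, against 0.904% of tested genes, with 13 of 46 (28.3%) at an unadjusted p-value below 0.05 against 11.4%, and voom gave 0. Against young, the 12-month value was -1.16 (SE 0.34; adjusted p = 0.148) and the 24-month value 0.42 (SE 0.34; adjusted p = 0.731).

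The *Cenpa* call lay close to the threshold. It held in 6 of the 20 fits that left out 1 library (young replicate 1, 2 or 3, 12-month replicate 1 or 3, or 18-month replicate 2) and was lost without any one of the other 14, with adjusted p-values there from 0.0542 to 0.14, and it held in 5 of 10 other settings. These included no fold threshold and one of 1.5, which keep the adjusted p-value of 0.0419 and so could not lose the call. The others were quantile normalization (0.0485), a filter at 50 (0.038) and a pseudocount of 10 (0.0411). The log2 difference stayed between 1.34 and 1.85 in the 20 fits. Without young replicate 1 or 12-month replicate 1, *Cenpa* was also a DEG between 12 months and young (adjusted p = 0.0209 and 0.0362). The lowest 12-month values, of replicates 5 and 2, were from libraries of 6835160 and 6699383 reads, which with 18-month replicate 1 (6821611 reads) were the 3 smallest of the 20, while 12-month replicate 4, with 63.1 normalized counts, had 8463854 reads. Over the 20 libraries, with age means removed, *Cenpa* had a Pearson r of 0.36 with the log2 number of reads and of -0.79, -0.67, -0.61, -0.50 and -0.48 with the summed markers of Schwann cells, conjunctiva, corneal endothelium, vessels and immune cells. The r with the other 7 marker lists lay between -0.15 and 0.29. The 5 Schwann cell markers, of which 2 had a mean of at least 10, summed to 1920 to 3432 at 12 months and 1862 to 2850.2 at 24 months, and the conjunctiva, vessel and immune ranges overlapped as well. The 6 corneal endothelium markers, of which 4 had a mean of at least 10, summed to 1618 to 1943 at 12 months and 1109.9 to 1572 at 24 months and so did not overlap. The sums are levels of listed marker genes and do not measure how many cells of a type a library held. The part of depth and of these marker genes in the *Cenpa* difference was not tested.

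*Ccnb1*, *Plk1* and *Kif23* also had 24-month libraries that all lay above the 12-month ones, so that 4 of 46 genes did not overlap, against 3.24% of tested genes in either direction. Between 12 months and young 0 of 46 did not overlap, against 1.98% of tested genes. These 3 genes were named after their values were seen. *Ccnb1* stood at 159.9, 187, 230.4, 228 and 205 at 12 months and at 267, 298, 309, 282 and 445 at 24 months, a log2 difference of 0.65 (SE 0.22; adjusted p = 0.175). *Plk1*, the Polo kinase of mitotic entry and exit, stood at 239, 269.6, 405, 359.8 and 322 at 12 months and at 411, 485, 529.7, 472 and 581 at 24 months, a difference of 0.65 (SE 0.21; adjusted p = 0.156). *Kif23* ranged from 591 to 854 at 12 months and from 904 to 1217 at 24 months, a difference of 0.44 (SE 0.18; adjusted p = 0.247). None of the 3 was a DEG in limma, and the young range of each overlapped both groups.

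**Figure D4:**
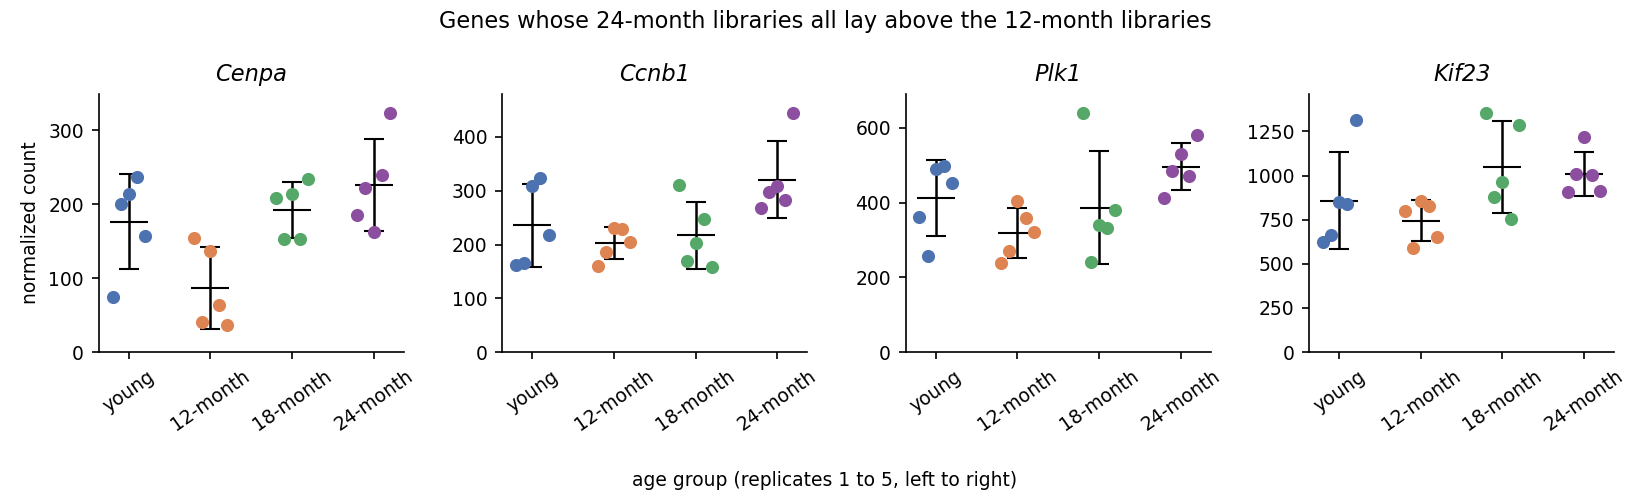
Normalized counts (y axis) of *Cenpa*, *Ccnb1*, *Plk1* and *Kif23* in each library, by age group (x axis, replicates 1 to 5 from left to right), with the mean and SD of 5 libraries. The 24-month points all lie above the 12-month points, and *Cenpa* at 12 months (37 to 154) is the one of these changes that passed the adjusted threshold.

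The order of the age means was alike for most mitosis genes. The 12-month mean was the lowest of the 4 for 29 of 46 genes, 25 of them of mitosis, and the 24-month mean was the highest for 26, 18 of them of mitosis. For S-phase genes 12 months was the lowest for 4 of 13. Neighbours in these orders were not tested as such, and with 5 libraries per age a count of DEGs cannot show that means lie within the spread. The 1 DEG was *Cenpa*, between 24 and 12 months, where 12 of 46 genes (26.1%) reached an unadjusted p-value below 0.05 in limma against 14.7% of tested genes. The genes are not independent, since they moved together between libraries.

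The members also varied within ages, between mice. With the age means removed, 41 of 46 genes (89.1%) varied more between libraries than the trend for genes of their level, against 49.6% of tested genes. The median ratio of the SD to the trend was 1.36 against 0.997, and the median residual SD was 0.45 on the log2 scale against 0.39. Over the 20 libraries, the median Pearson r between pairs of the 46 genes was 0.33, and 86.7% of pairs were above 0, against -0.0013 and 49.8% for all tested genes. The median was 0.38 among mitosis genes, 0.29 among S-phase genes and 0.26 between both kinds. These correlations are descriptions over libraries that share their depth and scaling.

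The 46 genes fell into more than 1 pattern. *Cenpf* and *Kif11*, a spindle motor, had an r of 0.88, and *Mki67* and *Top2a* of 0.85. *Cenpa* went with *Rrm2* (0.88) and *Cdk1* (0.84) but against *Mcm7* (-0.63). The highest median r with the other members was 0.51, for *Ube2c*, the E2 enzyme of the anaphase-promoting complex, followed by *Hmmr*, a spindle microtubule protein (0.49), and the lowest was 0.07, for *Mcm4*. In young replicate 1, for example, *Top2a*, *Mki67* and *Mcm7* were at the highest young values (4372, 1754 and 1767) while *Cenpa*, *Rrm2* and *Cdk1* were at the lowest (74.5, 76.7 and 183). In that library the 10 most abundant genes of all held 34.9% of the reads, the highest share of the 20 libraries (median 27.7%). The log2 number of reads had a median r of -0.28 with the 46 genes (-0.0001 over all tested genes). It was -0.61, -0.56 and -0.38 with *Mki67*, *Top2a* and *Mcm7*, and 0.36, 0.19 and 0.095 with *Cenpa*, *Rrm2* and *Cdk1*. The number of genes with at least 1 read had an r of -0.41, -0.62 and -0.65 with *Mki67*, *Top2a* and *Mcm7*, and of 0.44, 0.26 and 0.29 with *Cenpa*, *Rrm2* and *Cdk1*. The summed Schwann cell markers had an r of 0.49, 0.42 and 0.63 with the former genes and of -0.79, -0.72 and -0.69 with the latter. Conjunctiva, immune cell and corneal endothelium markers had these signs too, and those of corneal epithelium, suprabasal epithelium and keratocytes the opposite ones. The part of depth, of the number of genes with reads and of these marker genes in the co-variation was not tested.

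**Figure D5:**
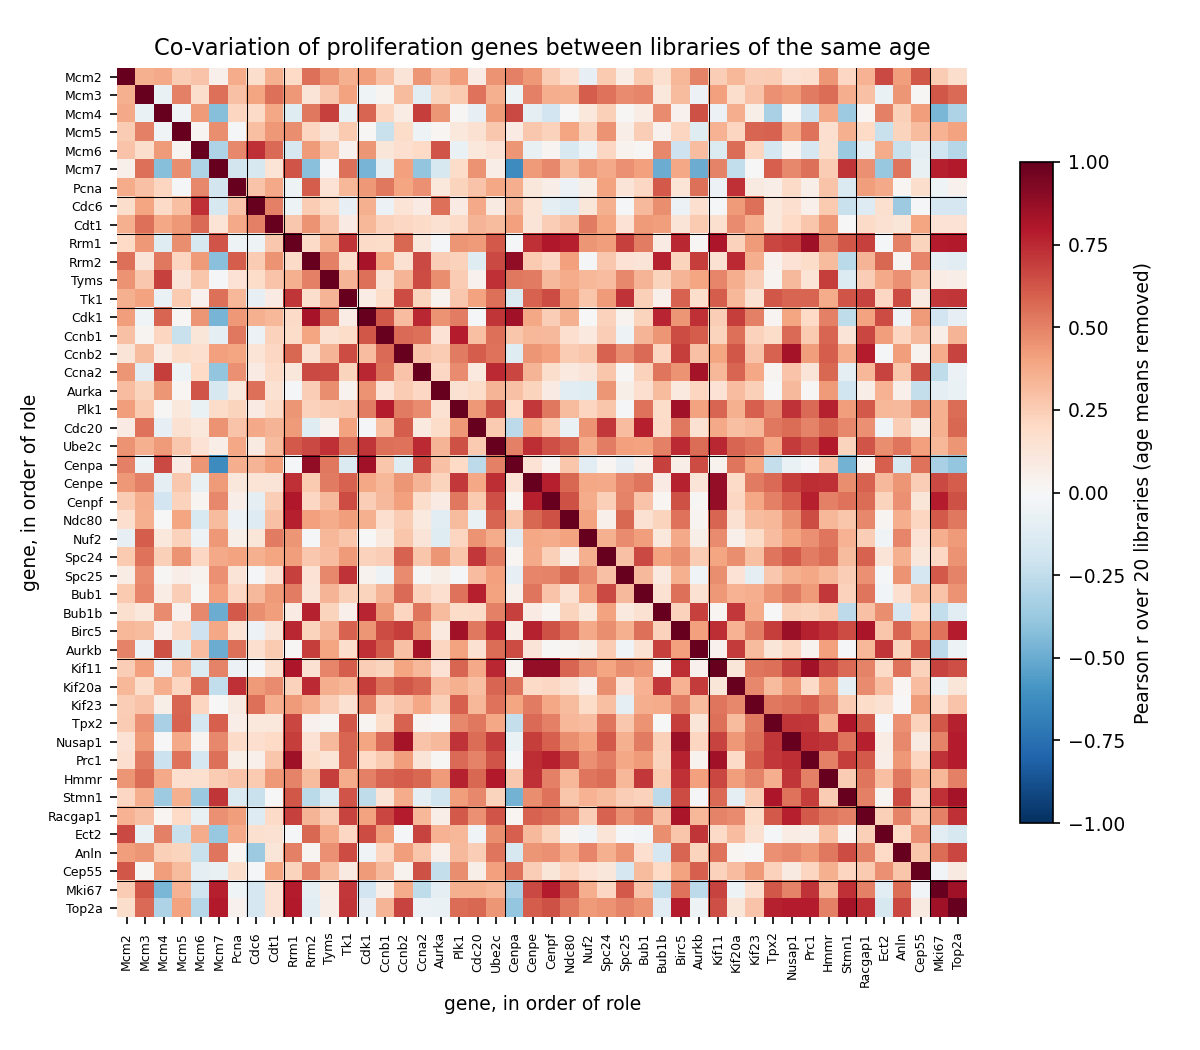
Pearson r (color) between each pair of the 46 genes over 20 libraries, with the mean of each age removed, and genes in order of role on both axes. Most squares are above 0 (86.7% of pairs), and *Cenpa* and *Mcm7* show negative values with each other (-0.63).

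Of 130 other cell cycle genes that were listed, 128 were tested. In the 12-month comparison with young, 2 of these were DEGs, both higher, where 0.532% of all tested genes were DEGs. Of the 128, 46 were higher (35.9%), against 48.3% of all tested genes, with a median log2 change of -0.10 against -0.01. *Ccnd2*, a D-type cyclin of G1, stood at 3069 ± 641 in the young libraries and 4897 ± 296 in the 12-month ones, a rise of 0.70 on the log2 scale (SE 0.15; adjusted p = 0.0274), and at 3534 ± 792 at 24 months. *Ccnd1*, the other D-type cyclin with high counts, rose by 0.47 (SE 0.10, limma adjusted p = 0.0108) from 4175 ± 667 in the young group over all aged libraries. The other DEG of that comparison among these genes was *Cdkn2a*, where 1.01% of all tested genes were DEGs. Without young replicate 1 or 5 the call of *Ccnd1* was lost (adjusted p = 0.0763 and 0.0514). *Cdkn2a*, which encodes inhibitors that hold cells before S phase, stood at 1.85 ± 1.75 normalized counts in the young group. It stood at 13.2 ± 5.56 at 12 months, 37.2 ± 14.5 at 18 months and 26 ± 7.15 at 24 months. *Cdkn2a* was a DEG against young at each age. It was the one DEG of the 128 at 18 and 24 months, where 0.673% and 0.78% of all tested genes were DEGs. It reached the mean of 10 needed for testing only through the aged libraries in which it was high, so these calls are a description and support nothing further. The call of *Ccnd2* was lost without young replicate 2, 3 or 5 or 12-month replicate 2, 3 or 5 (adjusted p = 0.0685 to 0.101). The 12-month call of *Cdkn2a* was lost without any one of 11 libraries (young replicate 1, 2 or 4, 12-month replicate 1, 2, 3 or 5, 18-month replicate 1, 4 or 5, or 24-month replicate 1, with adjusted p-values of 0.0501 to 0.118), and in 5 of 9 other settings (0.0533 to 0.457), and voom gave adjusted p-values of 0.332 at 12 months, 0.0513 at 24 months and 0.0884 for all aged libraries. The other fold thresholds, which leave the adjusted p-value unchanged, could not lose that 12-month call. Between 24 and 12 months the smallest adjusted p-value among the 128 was 0.137, and at the unadjusted 0.05 level 13 were higher and 6 lower at 24 months (14.8%, near the 14.7% of all tested genes). Of the 53 other mitosis genes among them, 10 were higher and 1 lower at that level (20.8%). In all, 36 of these 53 (67.9%) were higher at 24 months, against 52.2% of all tested genes. The median log2 difference was 0.19 against 0.02, and none was a DEG, against 0.195% of all tested genes. In the test over the 4 ages, 6 of 53 other mitosis genes (11.3%) reached an unadjusted p-value below 0.05, near the 11.4% of all tested genes.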

How the data were processed

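RNA of 20 libraries was measured by 3′ RNA sequencing. Per their methods, the authors used cutadapt for trimming, FastQC for quality control, STAR for alignment to GRCm38, HTSeq for counting and the relative log expression method of DESeq2 for scaling. The strand setting of the counting is not given in the sources used here. What the authors deposited per library is log2(normalized count + 1). The authors' own columns (a mean signal and the fold change, p-value and adjusted p-value of DESeq2) were not used, nor were 3 tables of 2 ages each, which repeat the same values. With size factors of 0.760 to 1.33, all deposited values (100%) returned whole reads within 0.001.

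The log2 values were fitted by age in limma 3.58.1 (R 4.3.3; variance trend, all 20 libraries in 1 fit) for genes averaging 10 normalized counts or more, with Benjamini-Hochberg adjustment, an adjusted p-value of 0.05 and 1.2-fold. All aged libraries against young were fitted as 2 groups. For single genes, all splits of 5 libraries against 5 were enumerated (exact permutation test, two-sided). Each library is a separate mouse. The fits were tested on simulated data. Python 3.11.15, numpy 2.4.6, pandas 2.3.3 and matplotlib 3.10.9 were used for sums, motifs and plots.

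The members and lists were chosen with earlier results of these data known. Genes were named if called, if *Mki67* or *Top2a*, if highest in their role, if among the 3 largest values in each direction in a comparison with young, or, for other cell cycle genes, if called. *Ccnb1*, *Plk1*, *Kif23*, *Cenpe*, *Ube2c*, *Hmmr*, *Kif11* and the genes in counts of 5 or fewer beyond that were chosen after their values were seen. Exons of 9 members share bases with a gene on the opposite strand (*Mcm7*, *Tk1*, *Ccna2*, *Plk1*, *Cdc20*, *Ube2c*, *Kif20a*, *Nusap1* and *Prc1*). Named copies elsewhere exist for 5 members (*Pcna*, *Tyms*, *Ccnb1*, *Ccnb2* and *Stmn1*). The alternatives were quantile normalization, no filter or a filter at 50, a fit of 2 ages alone, a block on replicate number, other fold thresholds and pseudocounts, voom on the recovered reads and leaving out each library. Of the members, 3 had a mean under 50 normalized counts.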

Additional observations from a re-analysis of the deposited data

Results flagged for a closer look

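Groups of 5 libraries were searched for a library far from the other 4, which about 1 in 20 groups of independent, normally distributed values would hold. The groups here include single genes and sums that contain them, so that rate is no measure for them. In 8 of 128 groups of 5 libraries (6.25%) the highest library stood apart from the other 4 by more than 0.71 of the range. At 24 months replicate 5 did so for the sum of mitosis genes (14389.7 against 9745 to 10970.5 in the others), *Cdk1* (709.6 against 409.5 to 477), *Ccnb1* (445 against 267 to 309) and *Bub1* (145 against 57.7 to 82.3). At 18 months replicate 1 did so for the sum of mitosis genes (14602 against 8566 to 9959.8) and replicate 2 for *Cdt1* (129 against 67.5 to 77.4). In the young group replicate 3 did so for *Aurka* (105 against 47.1 to 58.8) and replicate 5 for *Cdc6* (145 against 19.7 to 45.6). *Cenpa* differed between the 24-month and 12-month groups by 1.58 on the log2 scale, by the test of that difference.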

How the results depend on the processing

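Nowhere did a member become a DEG against young except *Cenpa* at 12 months, when young replicate 1 or 12-month replicate 1 was left out; the count there ranged from 0 to 1. Between 24 and 12 months the count of DEGs, 1 as reported, was 0 with no filter on low values, with only the 2 groups in the fit, with a pseudocount of 0.1 and with voom, and ranged from 0 to 1 on leaving out 1 library. The test over the 4 ages, 1 as reported, gave 0 with no filter, a pseudocount of 0.1 and voom, and 0 to 1 on leaving out 1 library. With the replicate number as a block both counts were 0 and the adjusted p-value of *Cenpa* was 0.0839. The labels number the mice without pairing them, and same-numbered libraries had correlations of their deviations from -0.30 to 0.16, so the block is given for completeness. The medians of the 46 genes, the summed levels and the median r (0.27 to 0.36 without 1 library) moved by less than the spread between libraries, or for r by less than 0.1, in all alternatives run, but values near 0 changed sign. On leaving out 1 library the 24-month median ran from -0.059 to 0.17 and the log2 summed level over young from -0.22 to 0.017 at 18 months and from -0.12 to 0.084 at 24 months. The latter, just below 0 as reported, was 0.052 as CPM, 0.020 without *Top2a*, 0.086 as the mean log2 value and -0.11 relative to the basal markers.

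Small log2 values changed sign. Quantile normalization turned *Top2a* between 24 and 12 months to 0.021, and voom turned *Cdt1* at 24 months against young to 0.0012. On leaving out 1 library, the 12-month values against young ran from -0.28 to 0.013 for *Mki67*, -0.27 to 0.051 for *Top2a*, -0.14 to 0.25 for *Cdt1* and -0.27 to 0.0012 for *Kif23*. The 24-month values against young ran from -0.31 to 0.012 for *Top2a*, -0.42 to 0.13 for *Mcm7*, -0.23 to 0.10 for *Cdt1*, -0.064 to 0.14 for *Rrm1*, -0.20 to 0.047 for *Cdc20*, -0.14 to 0.042 for *Cenpf* and -0.026 to 0.18 for *Racgap1*. Between 24 and 12 months the ranges were -0.15 to 0.10 for *Top2a*, -0.28 to 0.019 for *Cdt1* and -0.032 to 0.22 for *Cdc20*. With no filter the 12-month calls of *Ccnd2* (adjusted p = 0.06) and *Cdkn2a* (0.0533) were lost, and that of *Cdkn2a* also in the fit of 2 groups (0.457), with a pseudocount of 0.1 (0.0544) and with one of 10 (0.184, log2 change 0.95 against 2.46). The causes were not tested.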
